A study of Mus musculus with 72 samples.

Results

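Calr4, Trpc2 and 6 receptor genes at the start of the Vmn2r numbering (Vmn2r1, Vmn2r2, Vmn2r3, Vmn2r4, Vmn2r6 and Vmn2r7) are vomeronasal-type genes that were measured here by RNA sequencing of mouse olfactory epithelium. These 8 of the 54532 genes in the count table were chosen by symbol from the table of TPM (a transcript level scaled for gene length and library) and matched to read counts by Ensembl ID. Calr4 was chosen because its level was higher with ectopic Fzd1, so its values in that comparison are given as a description with no test. The question put to the 8 genes was whether their levels move together from library to library. Of the 8, 7 passed a filter on low counts over all groups, and Trpc2 had 0 counts in all 72 libraries, so that its TPM alone could be used. Vmn2r5 is not among the 8 and was not tested. It had 0 to 6 counts per library.

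The ectopicFzd1 mice carried Omp-IRES-tTA together with tetO-Fzd1-IRES-tdTomato, so that the activator tTA, made from the Omp locus, switches on a transgene of the Wnt receptor Fzd1 with the reporter tdTomato. The titles of all ectopicFzd1 libraries hold het, for heterozygous. Fzd1-lacZ mice carried a knockout allele of Fzd1, and the titles of all their libraries hold homo, for homozygous. Control mice carried Omp-IRES-tTA alone, an allele that ectopicFzd1 mice share and that the labels do not give for Fzd1-lacZ mice. All 3 genotypes were sampled without doxycycline (DOX) at postnatal days P0, P3, P7, P10 and P14. ectopicFzd1 and control mice were also sampled with DOX, given from P0 on to keep tTA from acting, at P1 and then at the same 4 later ages. The 72 libraries form 25 groups, 22 of 3 libraries and 3 of 2 (ectopicFzd1 P14, control P3 and control P7, all without DOX). No wild-type littermates of the Fzd1-lacZ mice are labelled, so Omp-IRES-tTA mice served as their control. Nothing in the labels says whether libraries of 1 group stem from different animals, and p-values therefore reflect the spread among libraries, which may be technical. The titles of all 3 ectopicFzd1 DOX P3 libraries share an ID, as do 1 ectopicFzd1 DOX P10 and 1 ectopicFzd1 DOX P14 library.

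The vomeronasal organ is a paired tube at the base of the nasal septum that detects pheromones and lies apart from the olfactory epithelium. Its apical neurons use V1R receptors with the G protein subunit Gnai2, and its basal neurons use V2R receptors with Gnao1. Trpc2 is the main ion channel of signal transduction in both layers, and it is also found in a few neuron types of the main epithelium, one of them marked by Gucy1b2. The receptors Vmn2r1 to Vmn2r7 form family C of the V2Rs, which basal neurons express broadly beside a more selective V2R. Calr4 is a calreticulin of the endoplasmic reticulum that is abundant in vomeronasal tissue and has been linked, in mouse, to the display of V2Rs at the cell surface. Omp is expressed in mature neurons of both the olfactory epithelium and the vomeronasal organ.

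Gene counts per library ranged over 1.315 M to 8.788 M (median 4.28 M) out of 10.48 M to 19.72 M reads, and reads outside annotated genes ranged over 0.488 to 5.824 per gene count. Omp, the mark of mature olfactory sensory neurons, was present in every library at 12.4 to 3018 CPM (counts scaled to library size). It differed widely between groups that are compared below. At P14 it was at 28.1 and 31.3 CPM in ectopicFzd1 and 1329 to 1514 CPM in control without DOX. With DOX at P14 it was at 52.7 to 63.6 CPM in ectopicFzd1 and 1072 to 1444 CPM in control. Control P10 libraries held 46.9 to 61.1 CPM without DOX and 865 to 890 CPM with DOX. The cause was not tested. Fzd1 was at 43.0 to 2122 CPM in ectopicFzd1 and 3.48 to 20.3 CPM in Fzd1-lacZ, against 20.9 to 44.3 CPM in control libraries without DOX. With DOX it was at 22.0 to 64.0 CPM in ectopicFzd1 and 3.45 to 54.3 CPM in control libraries. The library labelled ectopicFzd1 P3 replicate 3 held the lowest Fzd1 of its genotype without DOX, 43.0 CPM, within the control range, and the library labelled control DOX P7 replicate 1 held 3.45 CPM, below every Fzd1-lacZ library. Both go against their labels, and the comparisons and correlations of the 8 genes that use them are also given without them.

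Vmn2r1 to Vmn2r7, Vmn2r5 included, form a cluster of 7 genes over 0.763 Mb of chromosome 3 (mm10, GENCODE positions). Vmn2r1 lies at chr3:64081547-64109484 on the plus strand. Vmn2r2 (chr3:64115278-64141928), Vmn2r3 (chr3:64257215-64289709), Vmn2r4 (chr3:64383044-64415368), Vmn2r6 (chr3:64531310-64565830) and Vmn2r7 (chr3:64685044-64844765) follow on the minus strand. The exons of the receptors resemble each other to different degrees, which bears on how reads can be split between them. Of the distinct 50-base words in the exons of each gene, 48.97% for Vmn2r6 and 52.41% for Vmn2r7 also occur in another gene, mostly in each other. That share was 22.6% for Vmn2r4, 16.02% for Vmn2r2, 15.45% for Vmn2r1 and 3.09% for Vmn2r3, so counts of Vmn2r6 and Vmn2r7 are the least certain. Vmn2r7 also overlaps Gm26939 over 3.66% of its exonic bases.

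Calr4 lies at chr4:109234485-109254571 on the plus strand and shares none of its 50-base words with another gene. Trpc2 lies at chr7:102083116-102096396 on the plus strand, where 100% of its exonic bases are also exons of Xndc1 or Xntrpc on the same strand and 98.3% of its 50-base words occur in other genes, 97.52% in Xntrpc. The count table holds 0 reads for Trpc2 in every library, while its TPM had a median above 1. Its TPM is therefore an estimate of how reads divide between annotated transcripts that are nearly the same in sequence. Xntrpc averaged 1.18 ± 0.659 TPM and Xndc1 6.30 ± 3.28 TPM (SD, n = 72 libraries).

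The windows of 250 bases before to 50 bases after the start site (RefSeq, GRCm38.p6) are shown for Vmn2r2, Vmn2r4, Vmn2r6 and Vmn2r7. They display how alike these genes are around that annotated site. Capitals mark the longest run of letters that Vmn2r2, Vmn2r4, Vmn2r6 and Vmn2r7 share at the same place, the last 68 of the 300 bases. The windows of Vmn2r6 and Vmn2r7 were 99.33% identical, those of Vmn2r4 and Vmn2r6 95.03%, and Vmn2r2 shared 60.29 to 60.71% with these 3, while pairs with Vmn2r1 or Vmn2r3 shared 43.56 to 51.57%. The RefSeq start sites shown lie inside the GENCODE genes, by 4448 bases in Vmn2r2, 5311 in Vmn2r4, 6012 in Vmn2r6 and 125163 in Vmn2r7. The 2 annotations thus place the 5′ end of these genes differently, and by GENCODE the windows lie within the genes.
Vmn2r2, chr3:64137431-64137730, minus strand: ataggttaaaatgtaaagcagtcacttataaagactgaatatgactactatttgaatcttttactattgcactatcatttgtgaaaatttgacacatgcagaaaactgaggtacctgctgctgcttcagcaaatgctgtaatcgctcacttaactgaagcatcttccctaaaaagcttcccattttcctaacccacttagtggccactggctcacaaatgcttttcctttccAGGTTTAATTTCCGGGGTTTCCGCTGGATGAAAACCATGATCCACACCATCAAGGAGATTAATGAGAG
Vmn2r4, chr3:64410008-64410307, minus strand: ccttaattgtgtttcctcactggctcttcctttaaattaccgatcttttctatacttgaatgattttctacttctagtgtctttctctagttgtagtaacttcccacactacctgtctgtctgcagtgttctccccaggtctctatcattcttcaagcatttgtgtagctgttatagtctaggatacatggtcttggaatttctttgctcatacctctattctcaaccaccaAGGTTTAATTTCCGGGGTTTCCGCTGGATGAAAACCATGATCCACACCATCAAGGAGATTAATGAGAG
Vmn2r6, chr3:64559769-64560068, minus strand: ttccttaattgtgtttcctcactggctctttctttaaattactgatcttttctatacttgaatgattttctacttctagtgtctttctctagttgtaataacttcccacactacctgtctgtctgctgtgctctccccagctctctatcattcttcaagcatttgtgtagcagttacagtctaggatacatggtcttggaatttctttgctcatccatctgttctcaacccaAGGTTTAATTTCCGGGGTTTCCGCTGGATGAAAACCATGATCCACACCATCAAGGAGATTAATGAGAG
Vmn2r7, chr3:64719553-64719852, minus strand: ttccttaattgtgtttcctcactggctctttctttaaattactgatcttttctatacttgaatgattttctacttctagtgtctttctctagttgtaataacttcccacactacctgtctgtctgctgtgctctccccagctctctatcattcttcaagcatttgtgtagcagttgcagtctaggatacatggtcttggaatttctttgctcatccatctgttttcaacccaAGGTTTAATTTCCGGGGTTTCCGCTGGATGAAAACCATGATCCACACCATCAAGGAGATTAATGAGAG

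The Calr4 window at the start site that coincides with its GENCODE start is shown because Calr4 is the gene that was chosen for its difference between ectopicFzd1 and control libraries. Capitals mark a match to CCCNNGGG, the letters typical of sites of the EBF factors of olfactory neurons, which read the same on both strands.
Calr4, chr4:109234235-109234534, plus strand: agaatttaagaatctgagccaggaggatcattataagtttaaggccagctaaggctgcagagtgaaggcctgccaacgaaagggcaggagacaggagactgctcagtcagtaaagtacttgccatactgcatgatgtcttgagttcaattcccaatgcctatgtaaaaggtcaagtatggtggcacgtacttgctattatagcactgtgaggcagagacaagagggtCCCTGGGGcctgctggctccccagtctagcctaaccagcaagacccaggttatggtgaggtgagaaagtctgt
That motif occurs in 13.67% of all 32851 RefSeq windows of this length, and this Calr4 window was the only one of the 8 genes' windows that held it. RefSeq gives Calr4 4 start sites, of which the one shown is start site 2. The windows at its start sites 1, 3 and 4 held no match. TAATTA, a homeodomain core found in 5.29% of windows, occurred once, in Vmn2r3, and CACGTG, an E-box found in 7.15%, in none. Both of these also read the same on both strands, no window held more than 1 of the 3 motifs, and a match to letters is not a binding site.

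All 8 genes were at low levels in this tissue, and only Calr4 and Trpc2 exceeded 1 TPM on average. Over the 72 libraries the mean TPM was 2.32 ± 2.38 for Calr4, 1.56 ± 1.23 for Trpc2, 0.301 ± 0.358 for Vmn2r2, 0.285 ± 0.373 for Vmn2r1, 0.196 ± 0.135 for Vmn2r3, 0.178 ± 0.120 for Vmn2r7, 0.139 ± 0.113 for Vmn2r6 and 0.132 ± 0.0997 for Vmn2r4 (SD). The step in this order from Trpc2 to Vmn2r2 held in 64 of 72 libraries. The other neighbours did not differ beyond their spread: Calr4 exceeded Trpc2 in 41 libraries, Vmn2r2 exceeded Vmn2r1 in 43, Vmn2r1 exceeded Vmn2r3 in 29, Vmn2r3 exceeded Vmn2r7 in 43, Vmn2r7 exceeded Vmn2r6 in 47 and Vmn2r6 exceeded Vmn2r4 in 32. In a bulk sample fewer cells of a type and less RNA per cell cannot be told apart. For scale, Calr, the calreticulin of most cells, averaged 132.5 TPM and Gnao1 13.5 TPM. In counts, the receptors summed to 547 (Vmn2r6) to 1284 (Vmn2r1) over all libraries and Calr4 to 3102. At such counts a single library often held fewer than 10 reads of a receptor, and counting error is large.

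The 8 genes did not move together as 1 group but as 2 sets of 4. After the mean of each group was removed, Calr4, Trpc2, Vmn2r1 and Vmn2r2 varied together from library to library, and so did Vmn2r3, Vmn2r4, Vmn2r6 and Vmn2r7. The sets were formed after the values were seen and are described by their counts. They are called below the Calr4 set and the Vmn2r4 set. Correlations were of log2 CPM, or of log2(TPM + 1) for pairs with Trpc2, with 100000 permutations of libraries within groups and Benjamini-Hochberg adjustment over all 28 pairs.

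**Figure D1:**
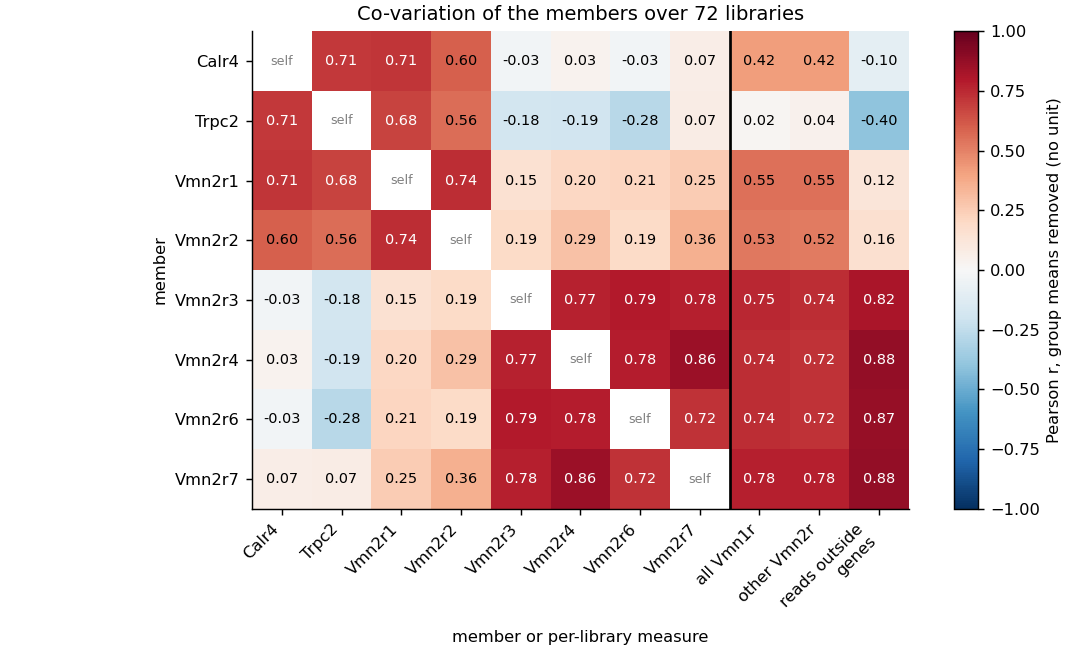
Pearson correlation (colour and printed value, no unit) of each of the 8 genes (rows) with the others and, right of the line, with 3 per-library measures, over 72 libraries with group means removed, on log2 CPM or, for pairs with Trpc2, log2(TPM + 1). Pairs within Calr4, Trpc2, Vmn2r1 and Vmn2r2 lie at 0.558 to 0.742, pairs within Vmn2r3, Vmn2r4, Vmn2r6 and Vmn2r7 at 0.723 to 0.857, and pairs between them at -0.278 to 0.359.

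Within the Calr4 set, 6 of 6 pairs passed at an adjusted p of 0.05, with r of 0.558 to 0.742 (median 0.69, n = 72). Calr4 and Vmn2r1, the chaperone and the most counted receptor, had r = 0.715 and rho = 0.628, with a permutation p of 2e-05 for r and an adjusted p of 0.000112. Calr4 and Trpc2 had r = 0.706 and rho = 0.616 with a permutation p of 3e-05. Vmn2r1 and Vmn2r2, neighbours on the chromosome, had r = 0.742 and rho = 0.695, with a permutation p of 1e-05, the smallest that 100000 permutations can give. The weakest pair was Trpc2 and Vmn2r2, with r = 0.558 and an adjusted permutation p of 0.00721, and with rho = 0.342, whose adjusted permutation p of 0.0576 misses the threshold. Without the 2 libraries farthest from the median, r was 0.462 to 0.697 within this set.

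Within the Vmn2r4 set, 6 of 6 pairs passed, with r of 0.723 to 0.857 (median 0.78). Vmn2r4 and Vmn2r7 had r = 0.857 and rho = 0.75, with a permutation p of 1e-05. Without the 2 farthest libraries, r was 0.62 to 0.809. Pairs inside this set include near-identical genes, of which Vmn2r6 and Vmn2r7 had r = 0.723, the lowest of the 6. Between the sets, 16 pairs had r of -0.278 to 0.359 (median 0.112), and 2 passed for r. Vmn2r2 and Vmn2r7 were at 0.359 (adjusted permutation p 0.0484, and 0.113 for rho), and Trpc2 and Vmn2r6 at -0.278 (adjusted permutation p 0.0271).

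The libraries were also divided by DOX, and no pair was tested in either part. In the 30 libraries with DOX, r was 0.199 to 0.66 within the Calr4 set, 0.289 to 0.754 within the Vmn2r4 set and -0.406 to 0.328 between the sets, so the ranges overlapped (medians 0.506, 0.572 and -0.058 in that order). In the 42 libraries without DOX it was 0.64 to 0.857 within the Calr4 set, 0.826 to 0.887 within the Vmn2r4 set and -0.403 to 0.379 between them. Without both libraries that go against their labels it was 0.474 to 0.736 within the Calr4 set, 0.699 to 0.842 within the Vmn2r4 set and -0.21 to 0.438 between them (70 libraries). The ID numbers in the titles fall into series by their first 3 digits, and 21 of the 25 groups hold a single series, so removing group means also removes most of what separates the series. In the comparisons below, ectopicFzd1 and control shared no series at P14 without DOX or at P3 to P14 with DOX. Fzd1-lacZ and control shared none at P0 to P10, nor did control with and without DOX at P3 to P10. P14 and P0 without DOX shared none in any genotype, nor did P14 and P1 with DOX in ectopicFzd1. What the labels compare and the series cannot be told apart there.

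The Calr4 set was high or low together in single libraries, within groups as well as between them. Calr4 had 1.0, 1.15 and 11.1 TPM in the 3 control DOX P3 libraries, and its 11.1 TPM in replicate 3 was the highest of all 72 libraries. In the same order Trpc2 had 2.34, 2.81 and 7.38 TPM and Vmn2r1 0.27, 0.11 and 1.90 TPM, also with their highest library in replicate 3. Vmn2r2 had 0.41, 0.12 and 1.42 TPM there. That library also held the highest summed level of all V1R genes, 73.4 TPM against 30.7 and 14.4 TPM in its replicates, and of the other V2R genes, 61.3 TPM against 21.5 and 11.3 TPM. Its formyl peptide receptors, another vomeronasal receptor family, summed to 2.34 TPM, against 1.12 and 0 TPM in its replicates. The H2-Mv genes, class I molecules of basal neurons, did not single it out: they summed to 2.55 TPM there, against 2.58 and 1.05 TPM in its replicates, and 2.58 TPM was the highest of all 72 libraries. Without control DOX P3 replicate 3, r within the Calr4 set was 0.485 to 0.729 over the other 71.

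**Figure D2:**
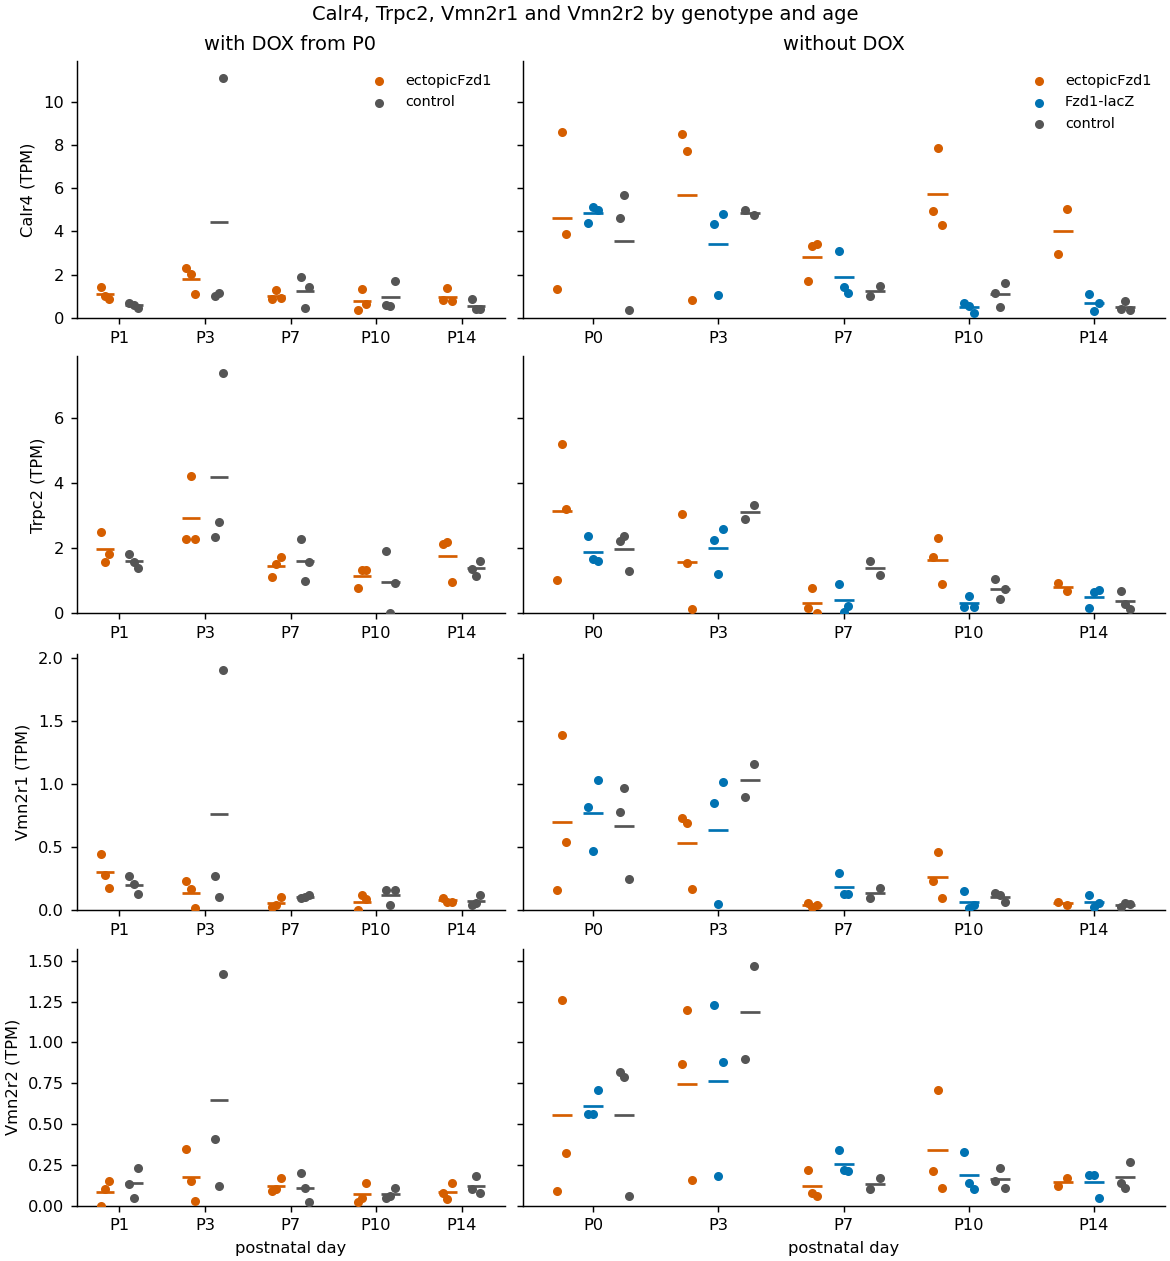
TPM of Calr4, Trpc2, Vmn2r1 and Vmn2r2 by postnatal day with DOX (left) and without DOX (right), on linear axes; points are libraries, coloured by genotype, and bars are group means. One control DOX P3 library is the highest for Calr4, Trpc2 and Vmn2r1, and at P7 to P14 without DOX the ectopicFzd1 libraries lie above control for Calr4.

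Other libraries were low for the whole set. In ectopicFzd1 P0, Calr4 had 1.36, 8.59 and 3.89 TPM, Trpc2 1.03, 5.20 and 3.21 TPM, Vmn2r1 0.16, 1.39 and 0.54 TPM and Vmn2r2 0.09, 1.26 and 0.32 TPM, so replicate 1 was the lowest and replicate 2 the highest for all 4 genes. The V1R genes summed to 1.62 TPM in that replicate 1, against 29.2 and 13.8 TPM in the others. In Fzd1-lacZ P3, Calr4 had 4.36, 1.06 and 4.80 TPM, Trpc2 2.24, 1.21 and 2.59 TPM and Vmn2r1 0.85, 0.05 and 1.02 TPM, with V1R sums of 23.5, 2.85 and 31.6 TPM. Replicate 2 was the lowest for these genes and for the V1R sum.

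In control P0, Calr4 had 4.64, 5.70 and 0.38 TPM, Vmn2r1 0.78, 0.97 and 0.25 TPM and Vmn2r2 0.82, 0.79 and 0.06 TPM, with replicate 3 the lowest for each. The library labelled ectopicFzd1 P3 replicate 3 was low too: Calr4 had 8.49, 7.73 and 0.83 TPM in that group, Trpc2 3.05, 1.54 and 0.14 TPM and Vmn2r2 0.87, 1.20 and 0.16 TPM. Its V1R sum of 18.8 TPM lay between 19.5 and 16.8 TPM in its replicates, so this library was low for the Calr4 set and not for V1R genes. It held 2.35 reads outside genes per gene count, against 1.04 and 0.574 in its replicates.

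Vomeronasal marker genes were present at low levels in every library. The V1R genes, 208 in the table, summed to 1.62 to 73.4 TPM (median 14.4) and the 115 other V2R genes to 1.99 to 61.3 TPM (median 9.94), with neither at 0 in any library. The H2-Mv genes summed to 0 to 2.58 TPM and were at 0 in 1 library, and the formyl peptide receptors summed to 0 to 2.34 TPM and were at 0 in 15. With group means removed, the V1R sum was correlated with Calr4 at r = 0.42, with Vmn2r1 at 0.55 and with Vmn2r2 at 0.53, and with Trpc2 at 0.02. It was higher for the Vmn2r4 set, at 0.75 for Vmn2r3, 0.74 for Vmn2r4, 0.74 for Vmn2r6 and 0.78 for Vmn2r7. These are given as a description over 72 libraries that share their depth with these values. Which tissue the transcripts came from was not tested.

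The Vmn2r4 set followed the reads that fall outside annotated genes. With group means removed, r between reads outside genes per gene count and log2 CPM was 0.82 for Vmn2r3, 0.88 for Vmn2r4, 0.87 for Vmn2r6 and 0.88 for Vmn2r7. It was -0.10 for Calr4, -0.40 for Trpc2, 0.12 for Vmn2r1 and 0.16 for Vmn2r2. These are descriptions over 72 libraries, and the gene count stands in the denominator of both measures. The V1R sum (0.75) and the sum of the other V2R genes (0.73) followed that measure as well.

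**Figure D3:**
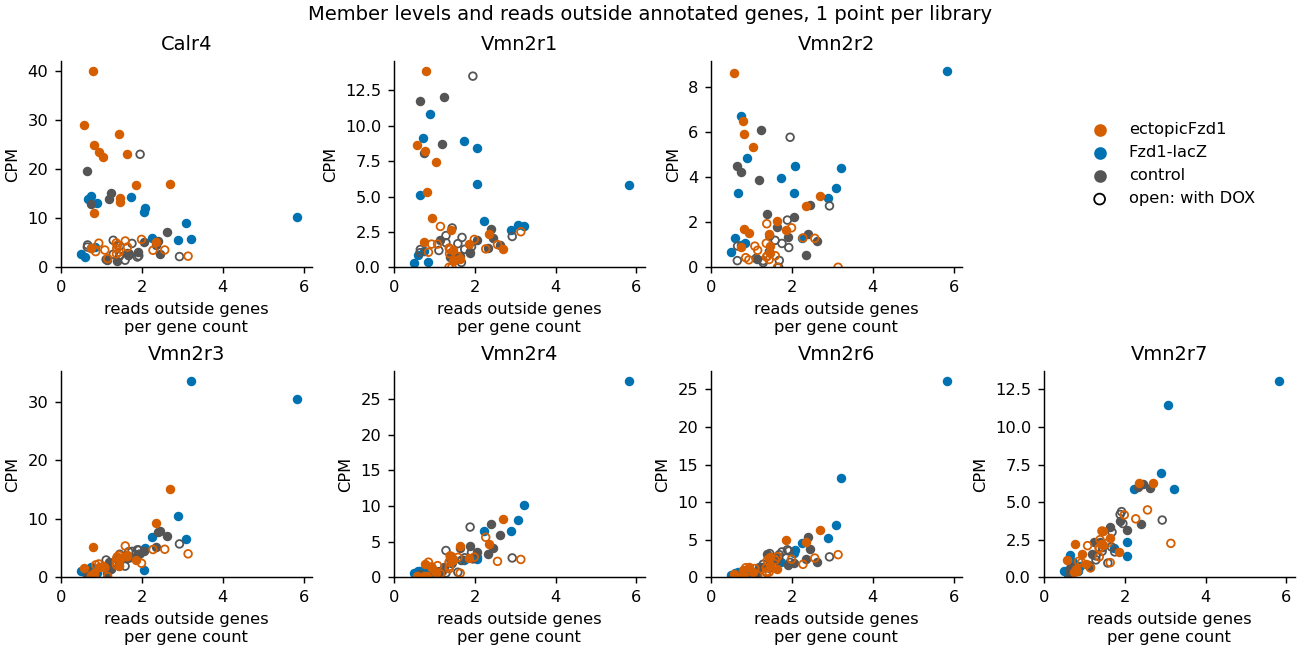
CPM of 7 genes (vertical axes) against reads outside annotated genes per gene count (horizontal axes), all linear, with 1 point for each of 72 libraries, coloured by genotype and open with DOX. The CPM use library sizes adjusted by TMM scaling. Vmn2r3, Vmn2r4, Vmn2r6 and Vmn2r7 increase with reads outside genes, with the highest points in Fzd1-lacZ P10 libraries, while high points of Calr4, Vmn2r1 and Vmn2r2 also lie at low values.

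Scaled to the reads outside genes in place of the gene counts, the Vmn2r4 set was more even between libraries and the Calr4 set less so. The coefficient of variation over all libraries was 0.477 on that scale and 1.30 in CPM for Vmn2r3, 0.573 and 1.29 for Vmn2r4, 0.520 and 1.41 for Vmn2r6, and 0.470 and 0.912 for Vmn2r7. It was 1.46 on that scale and 1.06 in CPM for Vmn2r1, 1.44 and 0.945 for Vmn2r2, and 1.35 and 0.941 for Calr4. When reads outside genes were regressed out within groups, a setting chosen after the data were seen, 6 of 6 pairs of the Calr4 set still passed with r of 0.543 to 0.737, while 0 of 6 pairs of the Vmn2r4 set passed for r after adjustment by permutation, with r of -0.173 to 0.363.

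Fzd1-lacZ P10 shows the size of this swing in CPM. Vmn2r3 had 30.5, 1.09 and 33.6 CPM in its 3 libraries, Vmn2r4 27.6, 0.543 and 10.22 CPM, Vmn2r6 26.1, 0.272 and 13.2 CPM and Vmn2r7 13.1, 0.407 and 5.84 CPM. Replicates 1 and 3 were high for all 4 receptors and replicate 2 was low. The raw counts behind these levels were 21, 8 and 23 reads for Vmn2r3 and 19, 4 and 7 reads for Vmn2r4. Gene counts were 1.315 M, 7.206 M and 1.928 M, and the CPM rest on library sizes further adjusted by TMM scaling. The swing was smaller in TPM, with 0.55, 0.05 and 0.30 TPM for Vmn2r3 and 0.56, 0.02 and 0.12 TPM for Vmn2r4. Reads outside genes were 5.82, 0.488 and 3.21 per gene count in the same order.

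Calr4 was higher in ectopicFzd1 libraries without DOX, most clearly at P7 to P14. At P7 it had 1.72, 3.33 and 3.43 TPM in ectopicFzd1, against 1.02 and 1.49 TPM in control. At P10 it had 4.95, 7.88 and 4.32 TPM in ectopicFzd1, against 1.14, 0.52 and 1.62 TPM in control. At P14 it had 2.96 and 5.04 TPM in ectopicFzd1, against 0.41, 0.77 and 0.36 TPM in control. At these 3 ages every ectopicFzd1 library lay above every control library, with means 2.25, 5.23 and 7.79 times those of control.

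At P0 the groups overlapped, and at P3 they overlapped only through the library labelled ectopicFzd1 P3 replicate 3. Calr4 averaged 4.61 ± 3.67 TPM in ectopicFzd1 and 3.57 ± 2.82 TPM in control at P0 (SD, n = 3 each), and 5.68 ± 4.22 TPM in ectopicFzd1 (n = 3) and 4.86 ± 0.156 TPM in control (n = 2) at P3. Without that library the P3 mean in ectopicFzd1 was 8.11 ± 0.537 TPM (SD, n = 2), with both values above control. Averaged over the 5 ages the log2 fold change was 1.59 (SE 0.27), a description since Calr4 was chosen on this comparison, in which 9.19% of 22144 genes were called by edgeR's quasi-likelihood test (2.67% higher, 6.52% lower). Leaving out each library in turn gave 1.43 to 1.72, and without the library labelled ectopicFzd1 P3 replicate 3 it was 1.66. With the ID series as a covariate over P0 to P10 it was 1.32. P14 was not in that fit, and ectopicFzd1 and control shared no series there, so genotype and series cannot be told apart. On the log2(TPM + 1) scale, which understates changes of low genes, the log2 fold change over the 5 ages was 0.87.

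**Figure D4:**
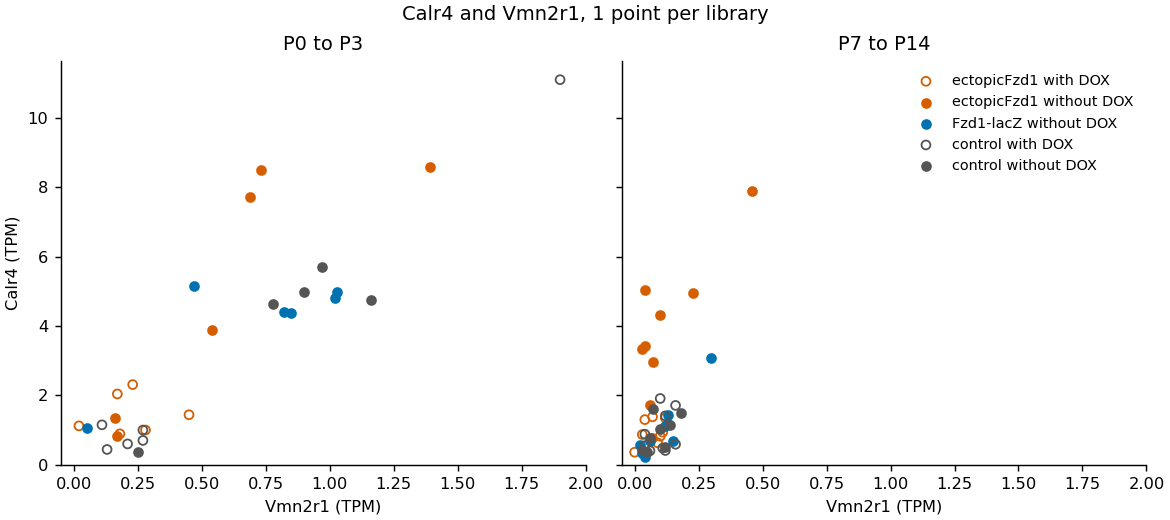
Calr4 TPM (vertical axis) against Vmn2r1 TPM (horizontal axis), both linear, with 1 point per library at P0 to P3 (left) and P7 to P14 (right); colours mark genotype and open points DOX. At P7 to P14, ectopicFzd1 libraries without DOX combine 1.72 to 7.88 TPM of Calr4 with 0.03 to 0.46 TPM of Vmn2r1, and control libraries without DOX lie at 0.36 to 1.62 TPM of Calr4.

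Vmn2r1, the receptor that followed Calr4 most closely over all libraries, did not separate from control in this way. It had 0.06, 0.03 and 0.04 TPM in ectopicFzd1 P7, 0.23, 0.46 and 0.10 TPM in ectopicFzd1 P10 and 0.07 and 0.04 TPM in ectopicFzd1 P14. In control it had 0.10 and 0.18 TPM at P7, 0.14, 0.12 and 0.07 TPM at P10 and 0.03, 0.06 and 0.05 TPM at P14. All ectopicFzd1 libraries lay below control at P7, and the groups overlapped at P10 and P14. The ratio of mean Calr4 to mean Vmn2r1 TPM was therefore 65.2, 21.7 and 72.7 in ectopicFzd1 at P7, P10 and P14, against 8.96, 9.94 and 11 in control. At P0 it was 6.62 in ectopicFzd1 against 5.36 in control, and at P3 10.7, or 11.4 without the library labelled ectopicFzd1 P3 replicate 3, against 4.72. In Fzd1-lacZ it stayed within 5.32 to 10.19 over the 5 ages, and with DOX within 3.66 to 17.3 in ectopicFzd1 and 2.85 to 11.5 in control, the highest at P7, where it was 8.22 without the library labelled control DOX P7 replicate 1. The ratios at P7 and P14 rest on few Vmn2r1 reads and are imprecise. These were 2, 2 and 4 in ectopicFzd1 P7, 5 and 2 in ectopicFzd1 P14, 5 and 9 in control P7 and 3 in each control P14 library. Calr4 was chosen for its higher level in ectopicFzd1, so the ratios are a description.

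Averaged over ages, none of the other 7 genes passed in ectopicFzd1 against control without DOX. Receptors were tested by edgeR's quasi-likelihood test with Benjamini-Hochberg adjustment, in which 9.19% of genes were called. Trpc2 was tested by limma on log2(TPM + 1), in which 6.76% of genes were called. Of the 6 receptors, 0 had an unadjusted edgeR p below 0.05, and 0 were called by DESeq2 or by limma on TPM. Vmn2r1 differed by -0.005 (SE 0.42, adjusted p = 1) and Vmn2r2 by 0.23 (SE 0.38, adjusted p = 0.806). In the Vmn2r4 set the log2 fold changes were 0.04 for Vmn2r3 (SE 0.36), -0.49 for Vmn2r4 (SE 0.46), -0.32 for Vmn2r6 (SE 0.45) and -0.54 for Vmn2r7 (SE 0.39), with adjusted p of 0.463 to 0.99. Trpc2 differed by -0.08 (SE 0.16, limma adjusted p = 0.777), where the median of all genes on that scale was -0.12. Without the library labelled ectopicFzd1 P3 replicate 3 none of the 7 passed either, with the receptors at -0.84 (Vmn2r4) to 0.28 (Vmn2r2) and Trpc2 at 0.02. Trpc2 had 0.17, 0.78 and 0 TPM in ectopicFzd1 P7, all below 1.60 and 1.17 TPM in control P7, and the groups overlapped at the other ages.

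The marker lists of vomeronasal neurons, chosen with earlier results of these data known, give the frame for Calr4. Of the basal V2R neuron list of 19 genes, 10 passed the filter. Beside Calr4, which is given as a description, edgeR called none of them, against 9.19% of all genes. The median log2 fold change of the 10 was -0.06, against -0.01 for all genes tested. The apical V1R neuron list of 210 symbols held 211 genes of the table, of which 86 passed. Of these 86, edgeR called 2, against 9.19% of all genes, and 14 had an unadjusted p below 0.05, against 20.4%. DESeq2 called 3, with no share of all genes given here, and limma on TPM 8, against 6.76%. Gnai2, which many cell types express, was higher by 0.25, and Vmn1r14 was lower by 1.25 on the log2 scale (median of the list -0.58). Of 64 other V2R genes tested, 0 were called by edgeR (median -0.39), with 4 at an unadjusted p below 0.05, 0 called by DESeq2 and 1 by limma on TPM. The shares of all genes are those just given. Of 5 tested genes shared by both layers, edgeR called 2 higher, against 2.67% of all genes, and 1 lower, against 6.52%. Gng8 was higher by 0.34 and Gnai2 by 0.25, and Robo2 was lower by 0.21 on the log2 scale. Limma on TPM called 0 of the 5. Without both libraries that go against their labels, edgeR called 1 gene of the V1R list higher and 3 lower, and 1 of the other V2R genes lower. None of the 5 formyl peptide receptors in the table passed the filter. In ectopicFzd1 without DOX the V1R genes summed to 1.62 to 29.2 TPM (median 13.0) and the other V2R genes to 2.10 to 25.9 TPM (median 9.34), against 10.01 to 50.6 TPM (median 23.3) and 7.01 to 34.7 TPM (median 15.9) in control without DOX.

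Calr4 belongs to a family of chaperones that hold new glycoproteins in the endoplasmic reticulum, and most of the chaperones listed beside it were higher in ectopicFzd1 without DOX. Of 14 tested, edgeR called 9 higher, against 2.67% of all genes, and 1 lower, against 6.52% (median log2 fold change 0.37, against -0.01 for all genes). DESeq2 called 11 of the 14, and limma on log2(TPM + 1) called 2. Sdf2l1, a partner of the chaperone BiP, was higher by 0.80 (SE 0.12), Hspa5, which encodes BiP, by 0.66 (SE 0.11), Creld2 by 0.59 (SE 0.10) and the disulfide isomerase Pdia6 by 0.57 (SE 0.10), with edgeR adjusted p of 6.22e-07 to 1.03e-05. Calr itself was higher by 0.42 (SE 0.10, edgeR adjusted p = 0.00329), with Hsp90b1, Pdia3, Pdia4 and Hyou1 at 0.36 to 0.43. Clgn, a chaperone best known from testis, was lower by 0.51 on the log2 scale (SE 0.10). Of the 12 mature olfactory sensory neuron genes, 11 were lower and 0 higher (median -0.75), beside the same shares of all genes, and the part of that difference in the value of Calr4 was not tested. Without both libraries that go against their labels, edgeR called 10 chaperones higher and 1 lower, and 11 of the mature neuron genes lower.

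With DOX, which holds the transgene off, 0 of the 7 genes tested by edgeR were called between ectopicFzd1 and control, beside 0.826% of all genes, and Trpc2 was not called by limma, beside 0.185%. None of these 7 had an unadjusted edgeR p below 0.05, and DESeq2 and limma on TPM also called 0. Calr4 differed by -0.06 (SE 0.33, edgeR adjusted p = 0.994), by 0.24 without control DOX P3 replicate 3, and by -0.01 without the library labelled control DOX P7 replicate 1. At P10 it had 0.36, 1.35 and 0.63 TPM in ectopicFzd1 DOX, against 0.59, 0.55 and 1.71 TPM in control DOX. At P14 it had 0.82, 1.38 and 0.76 TPM in ectopicFzd1 DOX, against 0.88, 0.40 and 0.41 TPM in control DOX. The groups overlapped at both ages, and at P1 alone all ectopicFzd1 DOX libraries (1.44, 1.0 and 0.89 TPM) lay above control DOX (0.70, 0.60 and 0.44 TPM). Vmn2r1 differed by -0.66 (SE 0.42, edgeR adjusted p = 0.683), and the other receptors by -0.20 to 0.37. Without the library labelled control DOX P7 replicate 1 the receptors lay between -0.64 (Vmn2r1) and 0.36 (Vmn2r7), Trpc2 was at 0.09, and none passed. Of the 14 chaperones, 0 were called by edgeR in this comparison, with 3 at an unadjusted p below 0.05 (against 2282 of all 22144 genes), 1 called by DESeq2 and 0 by limma on TPM.

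The ectopic effect on Calr4 without DOX minus that with DOX was 2.03 (SE 0.48) on the log2 scale over P3 to P14. It is a description, since it shares libraries with the comparison that chose Calr4, and 2.39% of all genes were called in it. Leaving out each library gave 1.65 (without control DOX P3 replicate 3) to 2.13, and without both libraries that go against their labels it was 2.06. None of the 6 receptors was called by edgeR, DESeq2 or limma on TPM or had an unadjusted edgeR p below 0.05, at -0.99 (Vmn2r7, SE 0.59) to 0.84 (Vmn2r1, SE 0.72), or -1.26 to 0.89 without those libraries, and 5 of the 14 chaperones were called higher and 0 lower by edgeR (7 called by DESeq2, 0 by limma on TPM).

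In Fzd1-lacZ against control, 0 of the 7 genes tested by edgeR were called, beside 2.85% of all genes. None had an unadjusted p below 0.05, and DESeq2 and limma on TPM also called 0. Calr4 had 1.11, 0.34 and 0.69 TPM in Fzd1-lacZ P14, against 0.41, 0.77 and 0.36 TPM in control P14, and the groups overlapped at every age. Its log2 fold change was 0.21 (SE 0.31, edgeR adjusted p = 0.852). The receptors lay between -0.16 (Vmn2r7) and 0.70 (Vmn2r3, SE 0.40, edgeR adjusted p = 0.432). Trpc2 was at -0.32 (SE 0.16, limma adjusted p = 0.123), where 24.5% of genes were called by limma and the median of all genes was -0.19. Trpc2 had 0.91, 0.05 and 0.22 TPM in Fzd1-lacZ P7, against 1.60 and 1.17 TPM in control P7, and 2.24, 1.21 and 2.59 TPM in Fzd1-lacZ P3, against 2.90 and 3.34 TPM in control P3. It lay below control without overlap at these 2 ages and overlapped at the other 3.

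**Figure D5:**
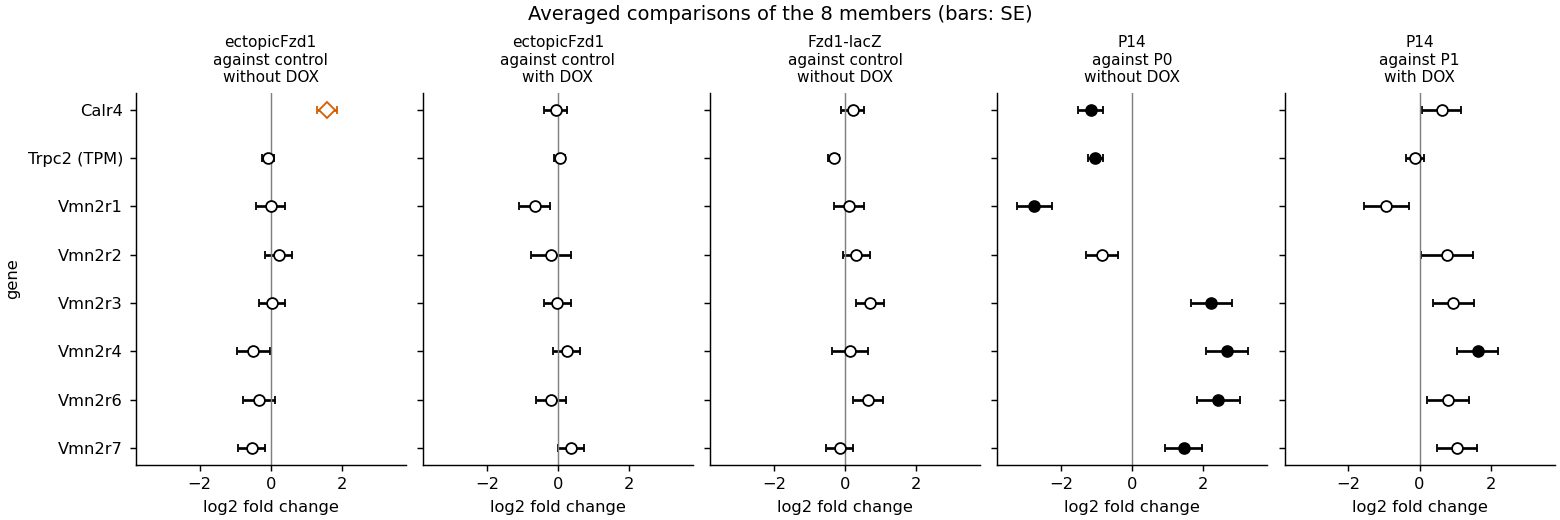
Log2 fold change of each gene (rows) in 5 comparisons (panels), first-named over second-named group, with bars of 1 SE, from edgeR or, for Trpc2, limma on log2(TPM + 1); filled points passed at an adjusted p of 0.05 and the diamond is a description. Calr4 stands at 1.59 in ectopicFzd1 against control without DOX and at -0.06 with DOX, and in P14 against P0 Vmn2r1 lies at -2.76 while Vmn2r3, Vmn2r4, Vmn2r6 and Vmn2r7 lie at 1.44 to 2.66.

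In libraries without DOX the sets also parted with age. Without DOX, P14 was set against P0 over the 3 genotypes, with 58.8% of all genes called, 27.2% lower and 31.6% higher. Calr4 fell by 1.17 on the log2 scale (SE 0.36, edgeR adjusted p = 0.00429). That value is read as a description, since it shares ectopicFzd1 and control libraries with the comparison that chose Calr4. It also averages genotypes that differ, and in ectopicFzd1 the P14 and P0 libraries overlapped for Calr4. Vmn2r1 fell by 2.76 (SE 0.50, edgeR adjusted p = 4.24e-06). Trpc2 fell by 1.04 on log2(TPM + 1) (SE 0.20, limma adjusted p = 2.16e-05), or by 0.64 relative to the median of all genes, which was -0.40 on that scale, with 59.4% of genes called. Vmn2r2 was at -0.86 (SE 0.45, edgeR adjusted p = 0.0929), and passed without control P0 replicate 3, at -1.03 (edgeR adjusted p = 0.0394).

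Vmn2r1, the family C receptor on the plus strand, had 1.66 and 0.584 CPM in ectopicFzd1 P14, against 1.79, 13.9 and 5.35 CPM in ectopicFzd1 P0. It had 2.61, 0.872 and 1.17 CPM in Fzd1-lacZ P14, against 8.90, 5.89 and 8.44 CPM in Fzd1-lacZ P0. It had 0.770, 1.01 and 0.708 CPM in control P14, against 8.05, 11.8 and 1.91 CPM in control P0. Every P14 library lay below every P0 library of its genotype. In ectopicFzd1, Calr4 had 2.96 and 5.04 TPM at P14, against 1.36, 8.59 and 3.89 TPM at P0, and overlapped. In control it had 0.41, 0.77 and 0.36 TPM at P14, against 4.64, 5.70 and 0.38 TPM at P0, where replicate 3 of P0 alone reached down to the P14 libraries.

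All 4 receptors of the Vmn2r4 set were called higher in counts at P14: Vmn2r3 by 2.22 (SE 0.58), Vmn2r4 by 2.66 (SE 0.58), Vmn2r6 by 2.42 (SE 0.61) and Vmn2r7 by 1.44 (SE 0.52), with edgeR adjusted p of 0.000107 to 0.0154. Vmn2r4 had 2.65 and 4.38 CPM in ectopicFzd1 P14, against 0.224, 0 and 0.131 CPM in ectopicFzd1 P0. It had 4.11, 4.39 and 2.59 CPM in control P14, against 0.141, 0.464 and 0.174 CPM in control P0. In Fzd1-lacZ it had 6.53, 0.872 and 0.834 CPM at P14, against 2.37, 2.83 and 2.53 CPM at P0, so 1 P14 library lay above and 2 below. P14 and P0 did not overlap in the first 2 genotypes and did in Fzd1-lacZ.

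Reads outside genes moved in the same way. They were 1.63 to 1.85 per gene count in ectopicFzd1 P14 against 0.745 to 0.813 at P0, 1.39 to 1.89 in control P14 against 0.644 to 1.15 at P0, and 0.599 to 2.90 in Fzd1-lacZ P14 against 1.74 to 2.06 at P0. With that measure as a covariate the log2 fold changes were 1.54 for Vmn2r3, 1.91 for Vmn2r4 and 1.66 for Vmn2r6, still called, and 0.66 for Vmn2r7 (edgeR adjusted p = 0.0611). On log2(TPM + 1) the 4 genes differed by 0.02 to 0.08 and were not called (limma adjusted p of 0.351 to 0.831). Vmn2r7 was also lost without Fzd1-lacZ P14 replicate 1, at 0.64 (edgeR adjusted p = 0.332), and without ectopicFzd1 P14 replicate 2, at 1.32 (edgeR adjusted p = 0.0667). The part of reads outside genes in the calls was not tested beyond these values.

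With DOX, where P14 was set against P1, 1 of the 7 genes tested was called, beside 48.4% of all genes. Vmn2r4 was higher by 1.64 (SE 0.58, edgeR adjusted p = 0.0165). It had 3.01, 2.13 and 5.62 CPM in ectopicFzd1 DOX P14, against 2.51, 0.502 and 1.21 CPM in ectopicFzd1 DOX P1, and 2.17, 7.06 and 3.50 CPM in control DOX P14, against 1.91, 0.611 and 0.715 CPM in control DOX P1. The call was lost without control DOX P14 replicate 2 (1.34, edgeR adjusted p = 0.0714), ectopicFzd1 DOX P1 replicate 2 (1.40, edgeR adjusted p = 0.0548) or ectopicFzd1 DOX P14 replicate 3 (1.43, edgeR adjusted p = 0.0504). Calr4 was at 0.62 (SE 0.55, edgeR adjusted p = 0.365) and Vmn2r1 at -0.94 (SE 0.63, edgeR adjusted p = 0.221). Vmn2r2 was at 0.77, Vmn2r3 at 0.95, Vmn2r6 at 0.80 and Vmn2r7 at 1.05 (edgeR adjusted p of 0.122 to 0.398). Calr4 and Vmn2r2 thus lay on the same side as the Vmn2r4 set here. Trpc2 was at -0.13 (SE 0.24, limma adjusted p = 0.666), or 0.46 above the median of all genes on that scale, with 65.8% of genes called by limma. Whether the change with age differs between libraries with and without DOX was not tested, since the first ages differ.

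DOX itself was tested in control mice over P3 to P14, where 0 of the 7 genes were called by edgeR, beside 0.867% of all genes, and 0 by DESeq2 or limma on TPM. Vmn2r2 and Vmn2r7 had an unadjusted edgeR p below 0.05. Calr4 differed by -0.26 (SE 0.37, edgeR adjusted p = 0.801), by -0.63 without control DOX P3 replicate 3, and by -0.32 without the library labelled control DOX P7 replicate 1. Vmn2r2 was at -1.25 (SE 0.52, edgeR adjusted p = 0.26) and Vmn2r7 at -1.06 (SE 0.42, edgeR adjusted p = 0.235). In a fit of the groups compared alone both passed, Vmn2r2 at -1.24 (edgeR adjusted p = 0.047) and Vmn2r7 at -1.06 (edgeR adjusted p = 0.0194). Trpc2 differed by 0.29 (SE 0.18, limma adjusted p = 0.646), beside 0.145% of genes called by limma. Without the library labelled control DOX P7 replicate 1, Vmn2r2 was at -1.41, Vmn2r7 at -1.05 and Trpc2 at 0.25, and none of the 8 genes passed. The listed V1R genes had a median of -1.001 and the other V2R genes -0.88 in this comparison, with 0 of 86 and 0 of 64 called by edgeR, and 0 by DESeq2 or limma on TPM. An unadjusted edgeR p below 0.05 was held by 31 of the 86 and 19 of the 64, against 13.3% of all genes.

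Markers beside the 8 genes changed with age in both directions. In P14 against P0 without DOX, Tfap2e, a transcription factor of basal vomeronasal neurons, fell by 2.36 on the log2 scale (SE 0.70, edgeR adjusted p = 0.00368), and Ano1 fell by 1.36. Gng8 rose by 0.87 and Gnao1 by 0.56. Of the 86 V1R-list genes tested, 15 were higher and 11 lower, and of the 64 other V2R genes 15 were higher and 6 lower, against 31.6% of all genes higher and 27.2% lower. All 12 mature olfactory sensory neuron genes were higher (median 1.43). Gucy1b2, which marks a Trpc2-positive type of the main epithelium and averaged 0.792 TPM, was higher at P14 by 1.36 with DOX and by 0.56 without DOX, and was not called between genotypes. Of the 6 TRPC channel genes tested, 0 were called by edgeR, DESeq2 or limma on TPM in the genotype comparisons. The edgeR shares of all genes called there are given above. Without DOX, 2 of the 6 had an unadjusted edgeR p below 0.05, against 20.4% of all genes. With DOX 0 did, against 2282 of all 22144 genes. In Fzd1-lacZ 0 did, with no share of all genes given here. With 6 genes these counts cannot tell the family from all genes. In P14 against P0, 3 of the 6 were higher and 1 lower.

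Genes whose pattern was most like these were named by the highest Pearson r among 17069 tested genes, with members and predicted names left out. For Calr4 over 72 libraries with group means removed they were Vmn2r88 (0.728), Vmn2r122 (0.721), Dlx6os1 (0.716), Vmn1r27 (0.698) and Gng2 (0.679). For Trpc2 they were Inafm2 (0.713), Vmn2r122 (0.652), Vmn2r-ps159 (0.64), Pir (0.64) and Gng2 (0.625). For Vmn2r2, the receptor of the highest mean TPM though not beyond the spread of Vmn2r1, they were Vmn1r27 (0.769), Vmn1r184 (0.735), Vmn1r89 (0.735), Vmn2r88 (0.723) and Vav3 (0.717). Vomeronasal receptors of either family appear in all 3 lists, and Vmn2r122 and Gng2 in those of Calr4 and Trpc2.

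Over the 25 group means the lists differed. For Calr4 they were Ighv1-62 (0.736), Vmn2r122 (0.727), Vmn2r49 (0.724), Ccdc171 (0.706) and Hist2h2bb (0.703), and Ighv1-62 had a mean TPM of 0 although it had counts. For Trpc2 they were S100z (0.893), Hap1 (0.886), Fam160a2 (0.874), Tmem11 (0.873) and Spg7 (0.869). For Vmn2r2 they were Vmn2r89 (0.874), Vmn2r58 (0.842), Vmn1r89 (0.839), Vmn2r-ps159 (0.825) and Vmn2r49 (0.814). The 25 means share genotype, age and libraries' depth, and these correlations are descriptions.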

How the data were processed

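RNA of olfactory epithelium was extracted with TRIzol and sequenced after a stranded total RNA kit with removal of ribosomal RNA, per the labels' protocols. The authors made reads with bcl2fastq 2.18, aligned them to mm10 with STAR 2.6.1c and used RSEM, per the submitters' processing notes. The annotation release, the version of RSEM and the strand setting of counting are not given in the sources used here. The deposited count table holds raw counts per gene with the reads outside genes, which were kept out of library sizes. The deposited TPM table holds levels the authors scaled for transcript length and library.

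The 8 genes, the marker lists and the tests were chosen with earlier results of these data known. Groups come from the labels' genotype, age and DOX. Genes outside the 8 were named by the highest correlation with Calr4, Trpc2 and the receptor of the highest mean TPM, 5 for each measure, and, from marker lists, as those called where 5 or fewer were called, or as up to 4 of the highest TPM. Clgn, Calr, Hsp90b1, Pdia3, Pdia4, Hyou1, Sdf2l1, Creld2 and Pdia6 were named from the chaperone list after their values were seen.

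The count tests used edgeR 4.0.16 (R 4.3.3). Of all genes, 22144 passed filterByExpr over the 25 groups. A single quasi-likelihood fit with TMM scaling and trended dispersion covered all 72 libraries. Comparisons average ages or genotypes, with SE beside each log2 fold change and Benjamini-Hochberg adjustment over all genes at 0.05. CPM divide counts by the TMM-adjusted library size. Trpc2 was planned for the same test and had no counts, so limma 3.58.1 was used on log2(TPM + 1) over 22145 genes. Relations used a prior count of 2. Counts were simulated for ectopicFzd1 against control without DOX, over 22144 genes with a dispersion of 0.05. On these, edgeR recovered 29.9%, 74.6% and 98.5% of genes given log2 changes of 0.5, 1 and 2, with 4 unchanged genes called. That dispersion was the same for every gene and was not taken from these libraries, so the shares may not hold for the receptors. No 2 libraries of a group held identical values.

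Alternatives were DESeq2 1.42.0, its size factors, other filters on low counts, a fit of the groups compared alone, limma on TPM (pseudocount 1 or 0.1), the ID series, leaving out the 2 libraries against their labels, and leaving out each library in turn. Chosen after seeing the data were the covariate of reads outside genes, scaling by all reads and a TPM minimum of 1 for Trpc2. Sequences are from RefSeq (GRCm38.p6), in which all 8 genes were found, and other positions from GENCODE on mm10.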

Additional observations from a re-analysis of the deposited data

Results flagged for a closer look

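Calr4 differed in the ectopic effect between libraries without and with DOX by 2.03 on the log2 scale (ectopicFzd1 against control without DOX, minus the same with DOX, over P3 to P14). The value stands out as a difference between groups under the same contrast, and it is a description, since the libraries without DOX also served to choose Calr4.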

How the results depend on the processing

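No paired analysis was possible because the labels carry no replicate numbers shared by groups. The ID series in the titles was fitted as a covariate only for ectopicFzd1 against control without DOX over P0 to P10. Leaving out each library in turn, the genes called numbered 1536 to 2246 in ectopicFzd1 against control without DOX, 126 to 215 with DOX, 394 to 1997 in Fzd1-lacZ against control (highest without Fzd1-lacZ P10 replicate 2), 53 to 186 for DOX in control, 385 to 710 for the DOX difference, 11530 to 12910 for P14 against P0 and 9945 to 10720 for P14 against P1. The full counts were 2035, 183, 630, 192, 530, 13030 and 10726 in that order. With all reads as library size they were 738 without DOX, 31 with DOX, 117 in Fzd1-lacZ, 16 for DOX in control, 28 for the DOX difference and 5664 for P14 against P1. With reads outside genes as a covariate they were 398 with DOX, 2175 in Fzd1-lacZ and 437 for DOX in control. A fit of the groups compared alone gave 324 with DOX, 1326 for DOX in control and 808 for the DOX difference. By limma on TPM with pseudocounts of 1 and 0.1 the counts were 41 and 36 with DOX, 5431 and 6728 in Fzd1-lacZ, 32 and 14 for DOX in control, and 185 and 253 for the DOX difference. DESeq2 gave 487 and its size factors 333 for DOX in control, where leaving out both libraries that go against their labels gave 110. The ID series as a covariate gave 1130 in ectopicFzd1 against control over P0 to P10. The cause of these shifts was not tested. Of the 28 relations, 14 passed and 7 with reads outside genes regressed out.

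For the 8 genes, 1442 of 1448 values with 1 library left out and 508 of 539 under other settings kept their side of the threshold, and none that passed changed direction. Beside the changes given above, Vmn2r2 in P14 against P0 also passed without a filter (-0.91), by limma at both pseudocounts (-0.41 and -1.17) and with all reads as library size (-1.49), where Vmn2r7 was at 0.74 and did not pass. In P14 against P1, Vmn2r1 passed without a filter (-0.97) and in a fit of its groups alone (-0.88), and Vmn2r3 and Vmn2r7 without a filter (0.93 and 1.01) and with the covariate (1.03 for both). Receptors with a few reads per library limit every statement on them.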
